A study of Mus musculus with 12 samples.

Results

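The effect of deleting Synbindin was described here in colon tumours, as the difference between 3 tumour libraries of SynbindinΔIEC mice and 3 tumour libraries of Synbindinflox mice. These are 6 of the 12 libraries of the series, chosen by genotype and tissue from the sample labels. The other 6 come from adjacent colon of the same genotypes, 3 libraries each, and are used only for comparison. All mice were C57BL/6 and were studied in a model of colitis-associated cancer. The label ΔIEC names a deletion in intestinal epithelial cells, and the flox libraries carry the floxed allele without it. No source used here names the Cre driver, the age of the mice or the agents and schedule of the model. The series title speaks of scraped epithelium, whereas the extraction text speaks of dissected tumours and adjacent tissue stored in a stabilising solution. RNA was total RNA isolated with TRIzol and made into strand-specific TruSeq libraries. Each tumour carries a code in the labels that no other tumour has, but nothing says that the codes are separate animals. The p-values therefore measure the spread between these samples, which may in part be technical. All flox tumours and most ΔIEC tumours share their code with an adjacent library of the same genotype. Both tissues may thus come from the same animals, so the adjacent values are not a separate check on the tumour values. The main comparisons between tissues did not pair libraries by code.

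Synbindin is the protein of Trappc4, a core subunit of the TRAPP complexes, which tether transport vesicles on the way from the endoplasmic reticulum to the Golgi and activate the Rab1 GTPase. The protein is also known as a scaffold that brings ERK2 to the Golgi and is tied to ERK signalling in tumour cells. Colon tumours of the colitis-associated type carry an active Wnt pathway, with high levels of its target and feedback genes, in an epithelium surrounded by stroma and immune cells. In bulk RNA, fewer cells of one type and less RNA per cell cannot be told apart.

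Levels are FPKM, fragments scaled to transcript length and to library size, summed over the transcripts of a gene. A gene was tested where it reached 1 FPKM in at least 3 of the 12 libraries, which left 16970 genes and, tested separately, 40417 transcripts. Differences are ΔIEC minus flox in log2(FPKM + 1), a scale on which low genes show less than their full change. Each comparison is read by limma's moderated test with Benjamini-Hochberg adjustment, where an adjusted p below 0.05 is a call, and by whether the 3 values of one genotype all lie above the 3 of the other ("no overlap").

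The tumour libraries summed to 534806 to 706216 FPKM over all listed transcripts, including those matched to no gene, and held 15331 to 15893 genes at 1 FPKM or more. The epithelial markers Epcam (290.2 to 395.6 FPKM) and Krt19 (1761 to 2553 FPKM) were high in all 6. Immunoglobulin genes took 20.5% of the summed FPKM in ΔIEC tumour 3 and 0.382% to 4.64% in the other tumours. Female and male patterns of Xist and Y-linked genes were mixed over the genotypes: flox tumours 1 and 2 and ΔIEC tumour 2 had Xist at 149.1 to 170.4 FPKM, and the other 3 had Y-linked transcripts instead. Over the tested genes, the tumour most like another was flox tumour 3 with ΔIEC tumour 1 (Pearson r = 0.964 across genes), and the lowest value was 0.928, between ΔIEC tumours 1 and 3.

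No gene was called between the genotypes in tumours (0 of 16970, 0%), and 317 genes (1.87%) had an unadjusted p below 0.05 in limma. An exact two-sided permutation test of 3 against 3 gives any gene with no overlap p = 0.1, the smallest of its 20 arrangements. Many genes can thus lack overlap without an effect of genotype. Genes with no overlap numbered 514 higher in ΔIEC tumours (3.03%) and 635 lower (3.74%). Of these, 20 higher genes (0.118% of all) and 15 lower genes (0.0884%) differed by at least 1 on the log2 scale. When each library was rescaled to its protein-coding total, the split became 329 higher (1.94%) and 855 lower (5.04%). The median difference over all genes was -0.01, and -0.05 after that rescaling. The median gene had a standard error of 0.193 and a 95% interval reaching 0.427 to either side, and for 14114 genes (83.2%) the interval lay within 1 log2 unit of 0. The spread within a genotype was larger among ΔIEC than among flox tumours for 58.6% of genes, with median SDs of 0.205 and 0.173.

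**Figure D1:**
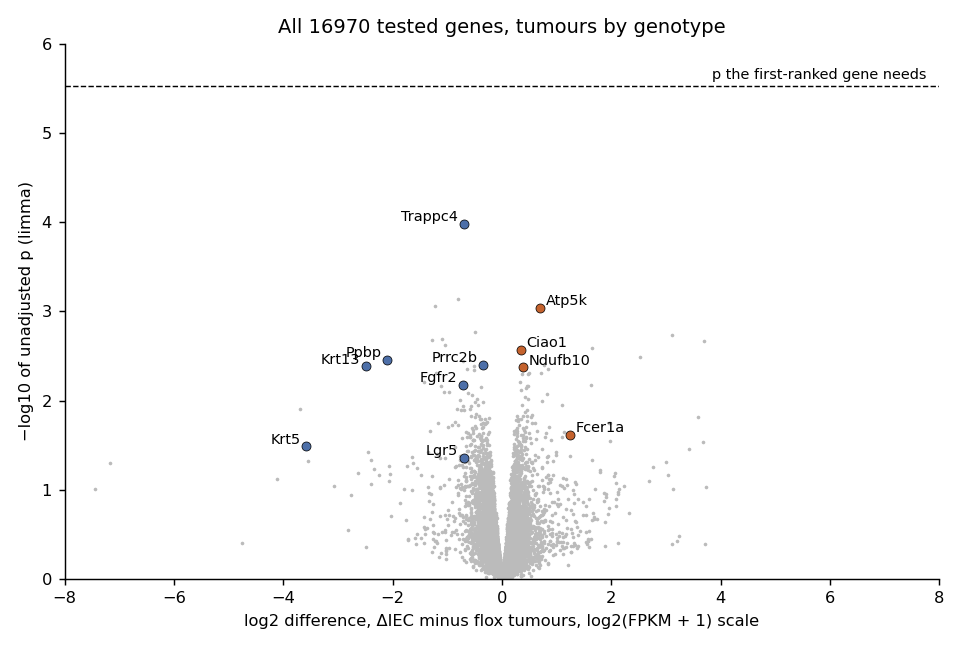
Each grey point is 1 of the 16970 tested genes: the x axis is the log2 difference (ΔIEC minus flox tumours) and the y axis the −log10 of limma's unadjusted p, with named genes coloured by direction and the dashed line at the p the first-ranked gene would need (2.95e-06). Trappc4 stands highest and no point reaches the line.

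Trappc4 (ENSMUSG00000032112, GRCm38 chr9:44403698-44407600, minus strand) was the gene with the smallest p of all. It measured 18.7, 17.5 and 20.9 FPKM in the 3 flox tumours and 12.7, 11.4 and 9.91 FPKM in the 3 ΔIEC tumours. Every ΔIEC tumour was below every flox tumour, and the ΔIEC mean (11.3 ± 1.39, SD, n = 3) was 59.6% of the flox mean (19.0 ± 1.73, SD, n = 3). The log2 difference was -0.70 (SE 0.115, 95% interval -0.96 to -0.45, limma adjusted p = 1). An exact two-sided permutation test on this gene gave p = 0.1, the smallest that 20 arrangements of 3 against 3 allow. Because no values overlapped, the same order had to hold within each sex pattern, so this split is not a further test. Among the Xist-high tumours 11.4 stood against 18.7 and 17.5 FPKM, and among the others 12.7 and 9.91 stood against 20.9 FPKM. With the sex pattern as a covariate, which was added after seeing the data, the log2 difference was -0.70. In adjacent tissue the difference was -0.59, and the interaction between genotype and tissue was -0.12 (SE 0.163, limma adjusted p = 1). The table holds 1 Trappc4 transcript, Trappc4-201, so no single exon can be checked and all of the gene's signal stands in 1 value.

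Trappc4 overlaps the ribosomal protein gene Rps25, which lies head to head with it on the other strand and shares 462 annotated bases. Rps25 measured 302.9, 330.0 and 306.1 FPKM in flox tumours and 359.3, 332.7 and 336.3 FPKM in ΔIEC tumours, higher without overlap by a small margin. Of 43 genes tested within 1000000 bases of Trappc4, Rps25 was the 1 higher and Trappc4 and C1qtnf5 the 2 lower without overlap, and apart from Trappc4 the differences ran from -0.57 to 0.51.

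At the level of transcripts, limma called 2 of 40417 in tumours (0.00495%), the same number as in adjacent tissue (0.00495%), and 0 for the interaction of genotype and tissue (0%). In tumours, Mt1-202 was higher and H2-Ke6-207 was lower in ΔIEC tumours. Some Cre transgenes carry genomic sequence of Mt1 as their polyadenylation signal, and no source used here describes the transgene of the ΔIEC mice, so RNA of the Mt1 gene and RNA of such a transgene cannot be told apart in the Mt1 values. Mt1 encodes metallothionein 1, a small cysteine-rich protein that binds zinc and copper and is induced by metals and stress, usually together with its neighbour Mt2. Mt1-202 is annotated as 1 unspliced exon (GRCm38 chr8:94179241-94180325, 1085 bases) that covers both introns of the spliced Mt1-201, of 484 and 213 bases. The sequences below show where they part, after the last 20 bases of the first exon of Mt1-201, with the bases that only the unspliced form holds in capitals (plus strand, GENCODE M21 transcripts).
Mt1-202: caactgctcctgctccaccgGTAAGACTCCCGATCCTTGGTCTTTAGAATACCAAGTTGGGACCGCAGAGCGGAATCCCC
Mt1-201: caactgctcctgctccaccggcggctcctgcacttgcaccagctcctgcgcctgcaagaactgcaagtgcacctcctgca

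Mt1-202 measured 0.982, 0.546 and 0.831 FPKM in flox tumours and 9.32, 20.97 and 29.2 FPKM in ΔIEC tumours. All 3 ΔIEC tumours stood far above all 3 flox tumours, although they varied among themselves. The log2 difference was 3.42 (SE 0.367, 95% interval 2.61 to 4.23, limma adjusted p = 0.0385). In adjacent tissue the transcript was also higher in ΔIEC: 0.789, 1.55 and 2.33 FPKM in flox against 139.8, 84.7 and 91.8 FPKM in ΔIEC libraries, a log2 difference of 5.39 (limma adjusted p = 8.38e-04). The interaction of genotype and tissue was -1.97 (SE 0.519, limma adjusted p = 1). The tumour call was made under 6 of 16 other settings, with adjusted p from 0.00736 to 0.357, while the difference itself ran from 3.08 to 4.38. Leaving out flox tumour 1 (adjusted p = 0.245), flox tumour 2 (0.356), flox tumour 3 (0.111), ΔIEC tumour 2 (0.357) or ΔIEC tumour 3 (0.0806) ended the call.

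The spliced Mt1-201 was not called, with 94.3, 110.7 and 83.0 FPKM in flox tumours and 171.3, 143.5 and 207.6 FPKM in ΔIEC tumours. These groups did not overlap, at a log2 difference of 0.85 (SE 0.404, limma adjusted p = 1). Mt2-201 showed no such separation: flox tumours had 206.8, 160.6 and 194.3 FPKM and ΔIEC tumours 199.0, 93.5 and 97.6 FPKM, so ΔIEC tumour 1 lay among the flox tumours. Summed over transcripts, the Mt1 difference in adjacent tissue was 2.30 and that of Mt2 -0.88, neither of them called by limma (adjusted p = 0.931 for each).

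**Figure D2:**
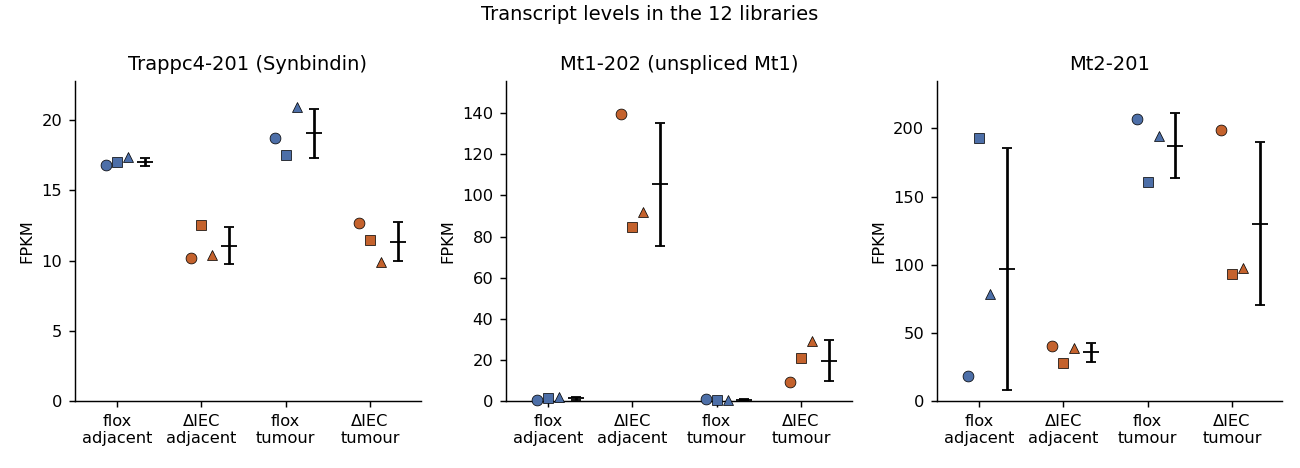
Each point is the FPKM of 1 library, for Trappc4-201, Mt1-202 and Mt2-201, in the 4 groups of 3 libraries (circle, square and triangle for replicates 1, 2 and 3), with the mean and SD beside them in black. ΔIEC libraries lie below flox libraries for Trappc4-201 and above them for Mt1-202 in both tissues, while Mt2-201 overlaps in tumours.

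H2-Ke6-207, a 459-base retained-intron transcript of a hydroxysteroid dehydrogenase gene in the major histocompatibility region, was the other call. It measured 1.29, 1.54 and 1.60 FPKM in flox tumours, 0.0323 FPKM in ΔIEC tumour 1 and was listed at essentially 0 in ΔIEC tumours 2 and 3. The log2 difference was -1.29 (SE 0.136, limma adjusted p = 0.0385). In adjacent tissue it was present in every ΔIEC library, at 1.67, 2.36 and 2.00 FPKM, against 1.25, 1.33 and 1.29 FPKM in flox libraries, and the interaction of -1.68 missed the threshold over all transcripts (adjusted p = 0.132). The whole gene overlapped between the genotypes in tumours, at 12.2, 14.5 and 10.01 FPKM in flox and 9.70, 10.1 and 13.01 FPKM in ΔIEC libraries. Each of the 6 omissions of a single tumour ended this call, with adjusted p from 0.0811 to 0.357, and the difference stayed between -1.35 and -1.26.

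Several other transcripts were near 0 in some tumours and at several FPKM in others. Katna1, the gene of the microtubule-severing subunit of katanin, shows how this can stand beside a gene total that overlaps. Katna1-201 measured 14.0, 15.2 and 19.0 FPKM in flox tumours and 0.0235, 0.029 and 14.97 FPKM in ΔIEC tumours, whereas Katna1-202 measured 0.601, 0.626 and 0.7997 against 21.2, 18.0 and 0.711 FPKM. The 2 transcripts have 11 exons each and differ by 1 base at the end of the last exon. The gene as a whole overlapped, at 18.0, 18.4 and 23.8 FPKM in flox and 27.7, 22.2 and 18.9 FPKM in ΔIEC tumours. A further count took the tested transcripts with a mean of at least 1 FPKM in either tumour group. Among 7395 genes with at least 2 of these, 190 had at least 1 higher and at least 1 lower without overlap. Per transcript rather than per gene, 3.5% of all tested transcripts were higher and 4.66% lower without overlap. An immunoglobulin heavy chain segment, Ighv6-6-201, stood at 8.74, 18.3 and 1.16 FPKM in flox tumours and at 55.8, 51.1 and 88.1 FPKM in ΔIEC tumours. It was not called (limma adjusted p = 1), and in adjacent tissue it was also without overlap, at 6.55 to 22.1 FPKM in flox and 158.2 to 425.9 FPKM in ΔIEC libraries.

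Few genes of the trafficking machinery around Synbindin separated the genotypes. TRAPP core subunits hold the complex together, and the further subunits define its TRAPPII and TRAPPIII forms. Of 8 core subunits tested, 5 had an estimate above 0, 1 was higher without overlap (Trappc2l) and 1 lower (Trappc4), against 3.03% and 3.74% of all genes. Trappc2l measured 14.6, 11.6 and 15.5 FPKM in flox and 15.8, 19.6 and 16.2 FPKM in ΔIEC tumours, a narrow gap at a log2 difference of 0.29 (SE 0.128), and it overlapped after rescaling to the protein-coding total and after removal of a length trend. Trappc1 measured 31.7, 31.4 and 31.2 FPKM in flox tumours and 38.6, 38.5 and 29.6 FPKM in ΔIEC tumours, so that ΔIEC tumour 3 lay below all flox tumours. None of the 6 TRAPPII and TRAPPIII subunits separated, among them Trappc9 (log2 difference -0.10, 95% interval -0.38 to 0.19) and Trappc13 (0.13, -0.10 to 0.36).

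The coats that the tethers serve showed no separation either. COPII forms vesicles that leave the endoplasmic reticulum and COPI those that return, and 0 of 13 COPII and 0 of 11 COPI genes lacked overlap. For these and the lists below, the shares over all genes were 3.03% higher and 3.74% lower without overlap. The COPII median difference was 0.09 and the COPI median 0.07, beside -0.01 for all genes. These are small values that single tumours moved: the COPII median ran from 0.02 without ΔIEC tumour 3 to 0.17 without ΔIEC tumour 2, and the COPI median was 0.12 without flox tumour 3 and 0.02 after quantile normalization. Sec23a, a COPII inner coat subunit, had a 95% interval of -0.20 to 0.48, and Sar1b, the GTPase that starts the COPII coat, one of -0.14 to 0.54. Copb2 of the COPI coat had an interval of -0.07 to 0.44. Among 24 Golgi tethers and SNAREs, 1 was higher without overlap, the Golgi SNARE Stx5a (34.2, 35.6 and 34.5 against 36.9, 37.4 and 41.9 FPKM), which overlapped after quantile normalization and after rescaling to the protein-coding total. Of 15 Rab GTPases of secretion, Rab30 was higher and Rab43 lower. Rab43, a Golgi Rab, measured 26.3, 26.1 and 27.9 FPKM in flox tumours and 22.05, 19.7 and 22.8 FPKM in ΔIEC tumours.

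Genes of the unfolded protein response, which is induced when the endoplasmic reticulum is overloaded, gave 4 of 29 without overlap, all higher and all chaperones or folding enzymes of the endoplasmic reticulum: Canx, Hsp90b1, Pdia3 and Pdia4 (all genes, 3.03% higher and 3.74% lower). After quantile normalization 0 were higher and 0 lower, and after rescaling to the protein-coding total 0 were higher and 1 lower. Canx, the lectin chaperone calnexin, had 133.5, 123.0 and 127.4 FPKM in flox tumours and 152.7, 157.5 and 140.4 FPKM in ΔIEC tumours. Its log2 difference was 0.23 (SE 0.103, limma adjusted p = 1), and those of the other 3 were smaller. The stress sensor Ern1 had a difference of -0.20 (95% interval -0.51 to 0.12).

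For ERK signalling, to which Synbindin is tied, RNA levels were described for its kinases and adaptors and for the genes it induces. The activity of the kinases was not measured. Among 18 kinases and adaptors 9 estimates lay above 0, and the median ran from -0.04 to 0.05 when 1 tumour was left out. Lamtor2, a subunit of the late endosomal MEK scaffold, was higher without overlap, and Sos1 and Braf were lower, beside 3.03% and 3.74% of all genes. Rescaling to the protein-coding total left 0 higher and 0 lower, and quantile normalization 0 and 1. Sos1, the exchange factor that loads RAS, measured 7.72, 7.85 and 6.72 FPKM in flox and 5.77, 6.48 and 6.36 FPKM in ΔIEC tumours. Braf, the RAF kinase upstream of MEK, had 13.6, 13.6 and 12.03 against 11.4, 11.6 and 11.6 FPKM. Of 20 feedback and output genes, 0 were higher and 2 lower without overlap, Spred1 and Spred2, both inhibitors of RAS activation. Spred2 measured 20.1, 20.4 and 20.1 FPKM in flox and 16.3, 18.6 and 17.5 FPKM in ΔIEC tumours, a difference of -0.21 (SE 0.1002, limma adjusted p = 1). The median of these 20 genes was -0.07, but -0.02 without ΔIEC tumour 1, -0.11 without ΔIEC tumour 2, -0.20 without ΔIEC tumour 3, -0.17 without flox tumour 2 and -0.00 without flox tumour 3. None of the 10 EGF ligands and ErbB receptors tested lacked overlap.

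Genes of mitochondrial respiration and of the ribosomes leaned to the higher side in ΔIEC tumours, beside 3.03% of all genes higher without overlap. Of 37 nuclear genes of complex I, the NADH dehydrogenase, 36 had an estimate above 0 (47.6% of all genes did) and 13 were higher without overlap. For complex IV, cytochrome oxidase, 12 of 12 estimates lay above 0 with 7 without overlap, and for the ATP synthase 17 of 17 with 6. Complexes II and III gave 12 of 13 with 2, mitochondrial import 20 of 22 with 5, and the mitochondrial ribosome 67 of 78 with 14. The mitochondrial genome gave 12 of 13 with 4, and the cytosolic ribosomal proteins 75 of 77 with 33. No gene of these 8 lists was lower without overlap. By list means, ΔIEC tumours 1 and 3 lay above all flox tumours in each list, and ΔIEC tumour 2 was the lowest of its genotype. For the mitochondrial genome, the mean log2 level of 6.74 in ΔIEC tumour 2 lay below 6.78 and 6.79 in flox tumours 2 and 3. ΔIEC tumour 2 also lay below flox tumour 3 for complexes II and III (6.58 against 6.64) and for the mitochondrial ribosome (4.490 against 4.498). The differences were small, with medians of 0.11 (import) to 0.35 (mitochondrial genome) beside -0.01 over all genes, and no gene was called. The medians of the 8 lists lay above 0 under every setting run, at sizes that varied: complexes II and III had 0.07 without ΔIEC tumour 3 and 0.24 without ΔIEC tumour 2, and the mitochondrial genome 0.22 without ΔIEC tumour 1. Import had 0.18 without flox tumour 3, and the mitochondrial ribosome 0.08 without flox tumour 1.

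Atp5k, subunit e of the ATP synthase, had the smallest p of the genes with a higher estimate. It measured 34.7, 32.0 and 31.5 FPKM in flox tumours and 66.7, 45.3 and 51.1 FPKM in ΔIEC tumours. The flox values were close together and every ΔIEC value lay above them, with ΔIEC tumour 1 highest. Its log2 difference was 0.70 (SE 0.152, limma adjusted p = 1), whereas in adjacent tissue it was -0.27, and the interaction was 0.97 (limma adjusted p = 1). Ndufb10 of complex I measured 30.7, 31.9 and 32.6 FPKM in flox and 40.4, 38.2 and 47.1 FPKM in ΔIEC tumours. Cox6b1 of complex IV measured 210.5, 201.8 and 223.2 against 270.6, 255.8 and 270.2 FPKM, and its values were tight in both groups. Tomm20, a receptor of the outer membrane import pore, measured 25.8, 32.9 and 33.4 against 47.0, 40.3 and 41.5 FPKM. For these 3 genes the log2 differences were 0.38 (SE 0.105), 0.33 (SE 0.0948) and 0.48 (SE 0.134).

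In the same group, Cox5b of complex IV stood at 77.7, 81.3 and 93.9 FPKM in flox and at 121.2, 98.0 and 133.5 FPKM in ΔIEC tumours, and Ndufa12 of complex I at 78.6, 86.2 and 90.8 against 109.5, 101.0 and 116.8 FPKM. Timm22, of the inner membrane import complex, stood at 8.05, 10.1 and 6.94 against 11.9, 13.01 and 11.3 FPKM. Mrpl35 and Mrpl20, proteins of the mitochondrial ribosome, differed by 0.46 and 0.42. Rps13 of the small ribosomal subunit had 146.6, 165.7 and 154.9 against 207.6, 195.5 and 189.6 FPKM. Among transcripts of the mitochondrial genome, mt-Cytb had 1485, 1570 and 1388 FPKM in flox and 2090, 1799 and 1944 FPKM in ΔIEC tumours, a difference of 0.39 (SE 0.183). Ciao1, which helps insert iron-sulfur clusters into cytosolic proteins, lies outside these lists and measured 16.5, 15.8 and 18.0 against 21.8, 21.6 and 20.9 FPKM. Tmem258, a subunit of the oligosaccharyltransferase, measured 36.0, 38.4 and 39.2 against 55.9, 45.4 and 53.8 FPKM.

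In adjacent tissue the same lists had medians below 0. They were -0.15 for complex I, -0.19 for complex IV, -0.18 for the ATP synthase and -0.12 for the cytosolic ribosomal proteins. Protein-coding genes of every class of transcript length also had medians below 0 there, from -0.03 over 4000 bases to -0.10 under 700 bases. There 0 genes of complex I were higher and 4 lower without overlap, and 25 ribosomal protein genes were lower, against 2.56% of all genes higher and 5.14% lower in that tissue. The direct test of the difference between tissues called no gene (0 of 16970, 0%), with 448 genes (2.64%) at an unadjusted p below 0.05 in limma.

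**Figure D3:**
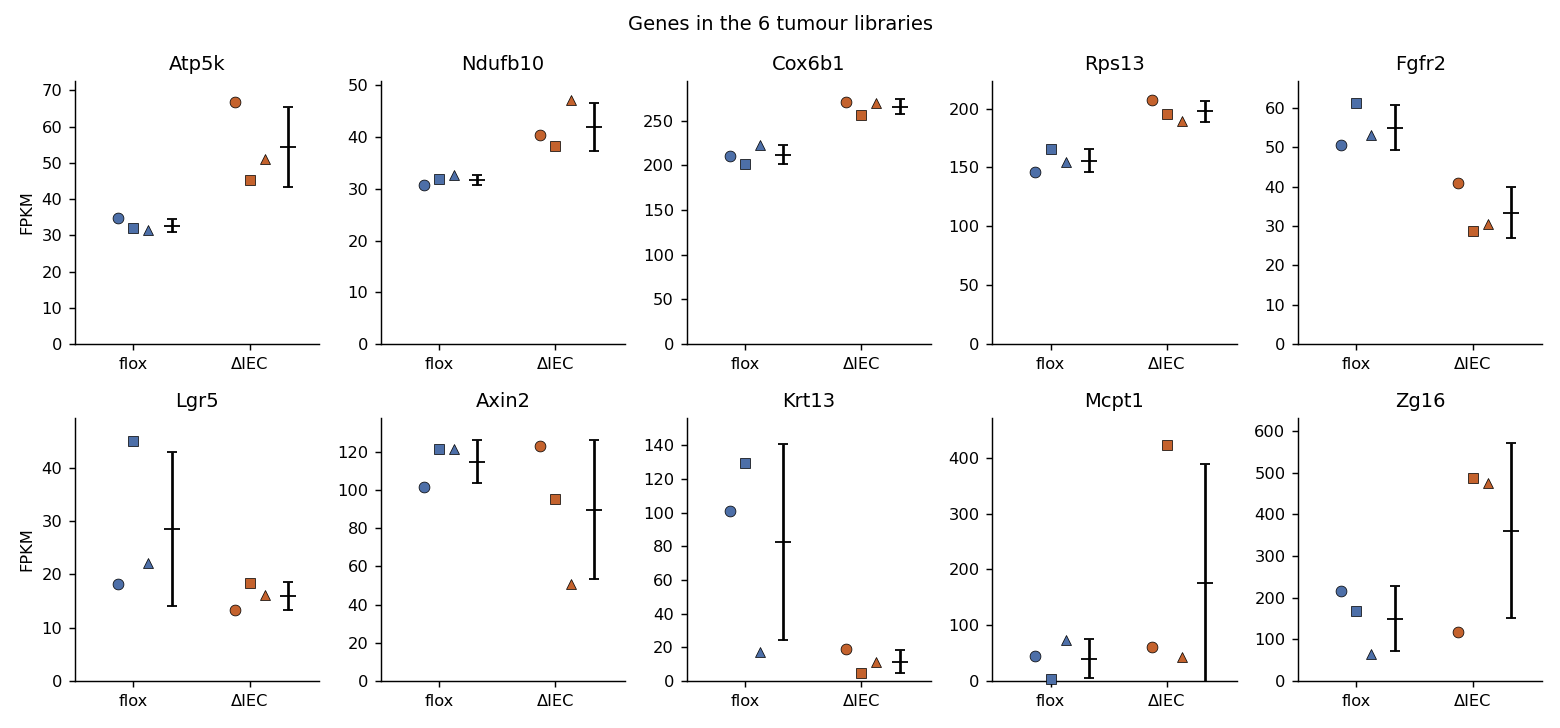
FPKM of 10 genes in the 3 flox and 3 ΔIEC tumours (circle, square and triangle for replicates 1, 2 and 3), with mean and SD in black (the lower bar of Mcpt1 in ΔIEC tumours runs below the axis). Atp5k, Ndufb10, Cox6b1, Rps13 and Fgfr2 separate the genotypes, and Lgr5, Axin2, Krt13, Mcpt1 and Zg16 overlap.

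The length of a gene's transcripts moved with the same difference. Protein-coding genes with a mean transcript length under 700 bases had a median difference of 0.14, and 67 of 431 (15.5%) were higher without overlap while 4 (0.928%) were lower, against 3.05% and 3.09% of all protein-coding genes. The median declined with each longer class, to 0.09 (700 to 1000 bases), 0.04 (1000 to 2000 bases), -0.02 (2000 to 4000 bases) and -0.07 (over 4000 bases). Above 4000 bases 0.825% were higher and 5.77% lower. With the mitochondrial and ribosomal lists left out, genes under 700 bases still had a median of 0.11, and 9.37% were higher. The complex I, complex IV, ATP synthase and ribosomal protein lists have median lengths of 715, 652, 662 and 687 bases. The 6 tumours differed in this respect within genotypes as well: short genes lay 0.13 above the mean of the tumours in ΔIEC tumour 1, 0.08 above it in ΔIEC tumour 3 and at -0.02 in ΔIEC tumour 2. Among flox tumours their median deviations were -0.13, -0.04 and -0.02.

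When a smooth trend on length was removed from each library, an alternative added after seeing the data, no-overlap counts went from 13 to 11 for complex I, from 7 to 6 for complex IV, from 6 to 4 for the ATP synthase and from 33 to 21 for ribosomal proteins (all genes, 3.18% higher and 2.95% lower). Quantile normalization left 6 ribosomal protein genes higher and 1 lower at a median of 0.01 (all genes, 3.05% and 3.59%), and rescaling to the protein-coding total left 14 higher. RNA integrity and fragment length values are not part of the sources used here, and the part of length in these differences was otherwise not tested.

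**Figure D4:**
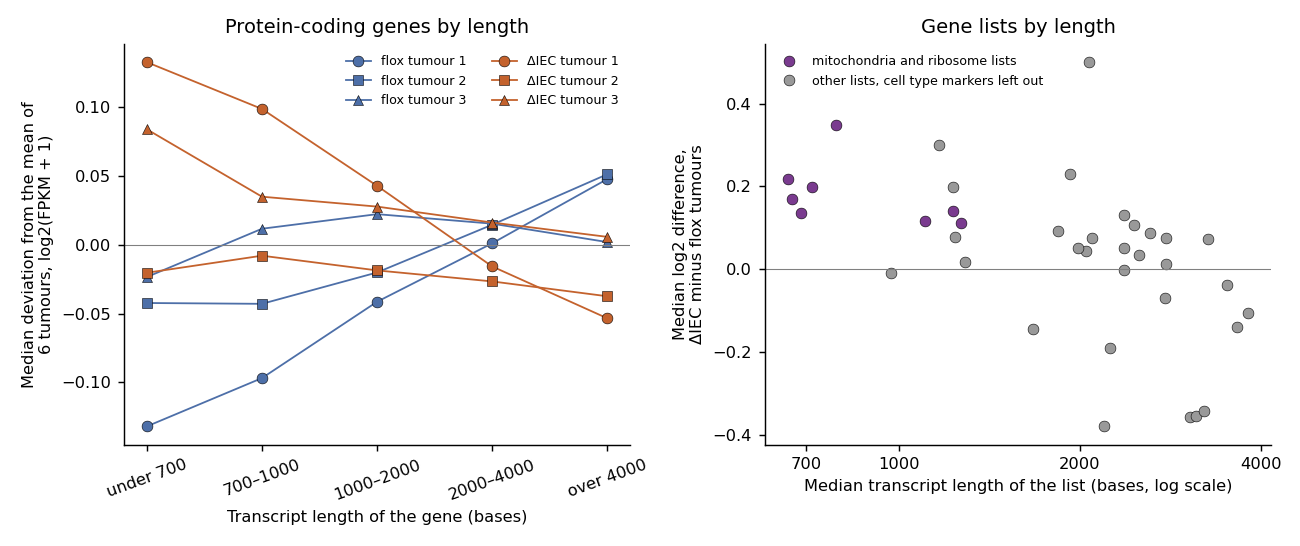
Left, the median deviation of protein-coding genes from the mean of the 6 tumours (log2 scale) by class of transcript length, 1 line per tumour; right, each gene list's median difference against its median length on a log axis, without the cell type marker lists. Short genes are highest in ΔIEC tumour 1 and lowest in flox tumour 1, and the mitochondrial and ribosomal lists sit at short lengths with medians above 0.

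Of the 12 genes with the smallest p on the lower side, Trappc4 apart (protein-coding, at least 5 FPKM in the higher group, no overlap), 4 are described first. Fgfr2, the receptor for fibroblast growth factors of the FGF7 family in epithelium, measured 50.6, 61.3 and 53.1 FPKM in flox tumours and 40.9, 28.8 and 30.6 FPKM in ΔIEC tumours. All 3 ΔIEC tumours lay below the flox tumours, at 60.8% of the flox mean and a log2 difference of -0.71 (SE 0.211, limma adjusted p = 1). Ptprg, a receptor tyrosine phosphatase, measured 28.0, 34.1 and 26.9 against 22.5, 18.7 and 23.0 FPKM. Prrc2b, a long coiled-coil protein gene, measured 29.5, 33.1 and 30.8 against 25.4, 23.6 and 23.8 FPKM, a log2 difference of -0.35, or -0.25 after removal of the length trend. Large2, a glycosyltransferase that extends the sugar chain of dystroglycan, had values of 6.17, 7.37 and 5.86 against 3.90, 3.63 and 5.18 FPKM.

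The magnesium transporter gene Slc41a1, the phosphatase gene Ppm1l, the Polycomb cofactor gene Aebp2 and the sugar transporter gene Slc35b4 differed by -0.42, -0.49, -0.24 and -0.32. The ubiquitin ligase scaffold Cul7, the pseudophosphatase Styx and the chromatin remodelling subunit Arid1b differed by -0.40, -0.38 and -0.27. Slc41a1 measured 12.6, 9.99 and 11.3 FPKM in ΔIEC tumours and at least 13.6 FPKM in flox tumours. Among other classes, 68 of 787 genes of the class TEC were lower without overlap (8.64%, beside 3.74% of all genes). TEC genes are unspliced loci awaiting experimental support, and 6 of them were higher without overlap, beside 3.03% of all genes. Of 9398 retained-intron transcripts, 534 were lower without overlap (5.68%, beside 4.66% of all transcripts). These differences had the same sign as that of the long genes, and their relation to unspliced RNA was not tested.

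Wnt signalling was described by its receptors and cascade, its targets and the stem cell genes of the crypt base. Of 24 receptor and cascade genes 23 had an estimate below 0 and 3 were lower without overlap, Dvl3, Fzd7 and Gsk3b, at a median of -0.14 (all genes, 3.74% lower without overlap and 47.6% of estimates above 0). The median was -0.07 without flox tumour 2, -0.09 without ΔIEC tumour 1 and -0.22 without flox tumour 3, and 5 genes were lower after quantile normalization or rescaling to the protein-coding total. Dvl3, which relays the signal from Frizzled receptors, measured 14.4, 18.5 and 15.9 FPKM in flox and 12.3, 12.6 and 14.3 FPKM in ΔIEC tumours. Fzd7, a Frizzled receptor of intestinal stem cells, measured 5.51, 8.94 and 6.40 against 4.26, 4.66 and 4.78 FPKM. Their differences were -0.29 (SE 0.104) and -0.49 (SE 0.178), each with a limma adjusted p of 1, and in adjacent tissue they were 0.17 and 0.18. This list has a median transcript length of 3660 bases, and after removal of the length trend its median was -0.06 and 1 gene was lower without overlap.

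The 24 target and feedback genes had 19 estimates below 0 and a median of -0.35, but 1 alone, Prox1, was lower without overlap (0 after median centring or removal of the length trend), and ΔIEC tumour 1 was as high as the flox tumours. Axin2, the feedback inhibitor that reports pathway activity, measured 101.8, 121.6 and 121.5 FPKM in flox and 122.9, 95.2 and 50.7 FPKM in ΔIEC tumours. ΔIEC tumour 1 was the highest of all 6 and ΔIEC tumour 3 the lowest. The secreted inhibitors Notum (58.9, 47.1 and 23.3 FPKM in ΔIEC) and Wif1 (160.7, 78.5 and 47.6 FPKM in ΔIEC) had the same order within that genotype, while flox tumours had 51.1 to 83.5 FPKM of Notum and 121.3 to 137.3 FPKM of Wif1. The list's median was -0.59 without ΔIEC tumour 1 and -0.19 without ΔIEC tumour 3. Mean log2 levels of the list were 5.18, 5.18 and 5.20 in flox tumours and 5.27, 4.85 and 4.41 in ΔIEC tumours.

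All 17 crypt base stem cell genes had an estimate below 0, with a median of -0.34, and 2 were lower without overlap, Smoc2 and Msi1, beside 3.74% of all genes. The median was -0.18 without ΔIEC tumour 3, and 0 genes were lower after median centring, 1 after quantile normalization or removal of the length trend and 3 after rescaling to the protein-coding total. The list shares 8 genes with the target list, so the counts are not separate. Lgr5, the R-spondin receptor that marks crypt base stem cells, measured 18.3, 45.0 and 22.1 FPKM in flox and 13.2, 18.3 and 16.2 FPKM in ΔIEC tumours. The highest ΔIEC value lay just above the lowest flox value, flox tumour 2 stood far above the rest, and the difference of -0.70 (SE 0.306) became -0.33 without flox tumour 2. Smoc2, a matricellular protein of the same cells, measured 27.9, 55.3 and 30.1 against 18.7, 27.6 and 26.2 FPKM. Cdca7, a target of Myc with a role in replication, measured 29.0, 53.8 and 46.5 against 29.8, 23.8 and 34.0 FPKM. Of 25 proliferation genes 0 lacked overlap, and Mki67 measured 41.8, 55.6 and 62.6 against 59.9, 53.8 and 67.4 FPKM.

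**Figure D5:**
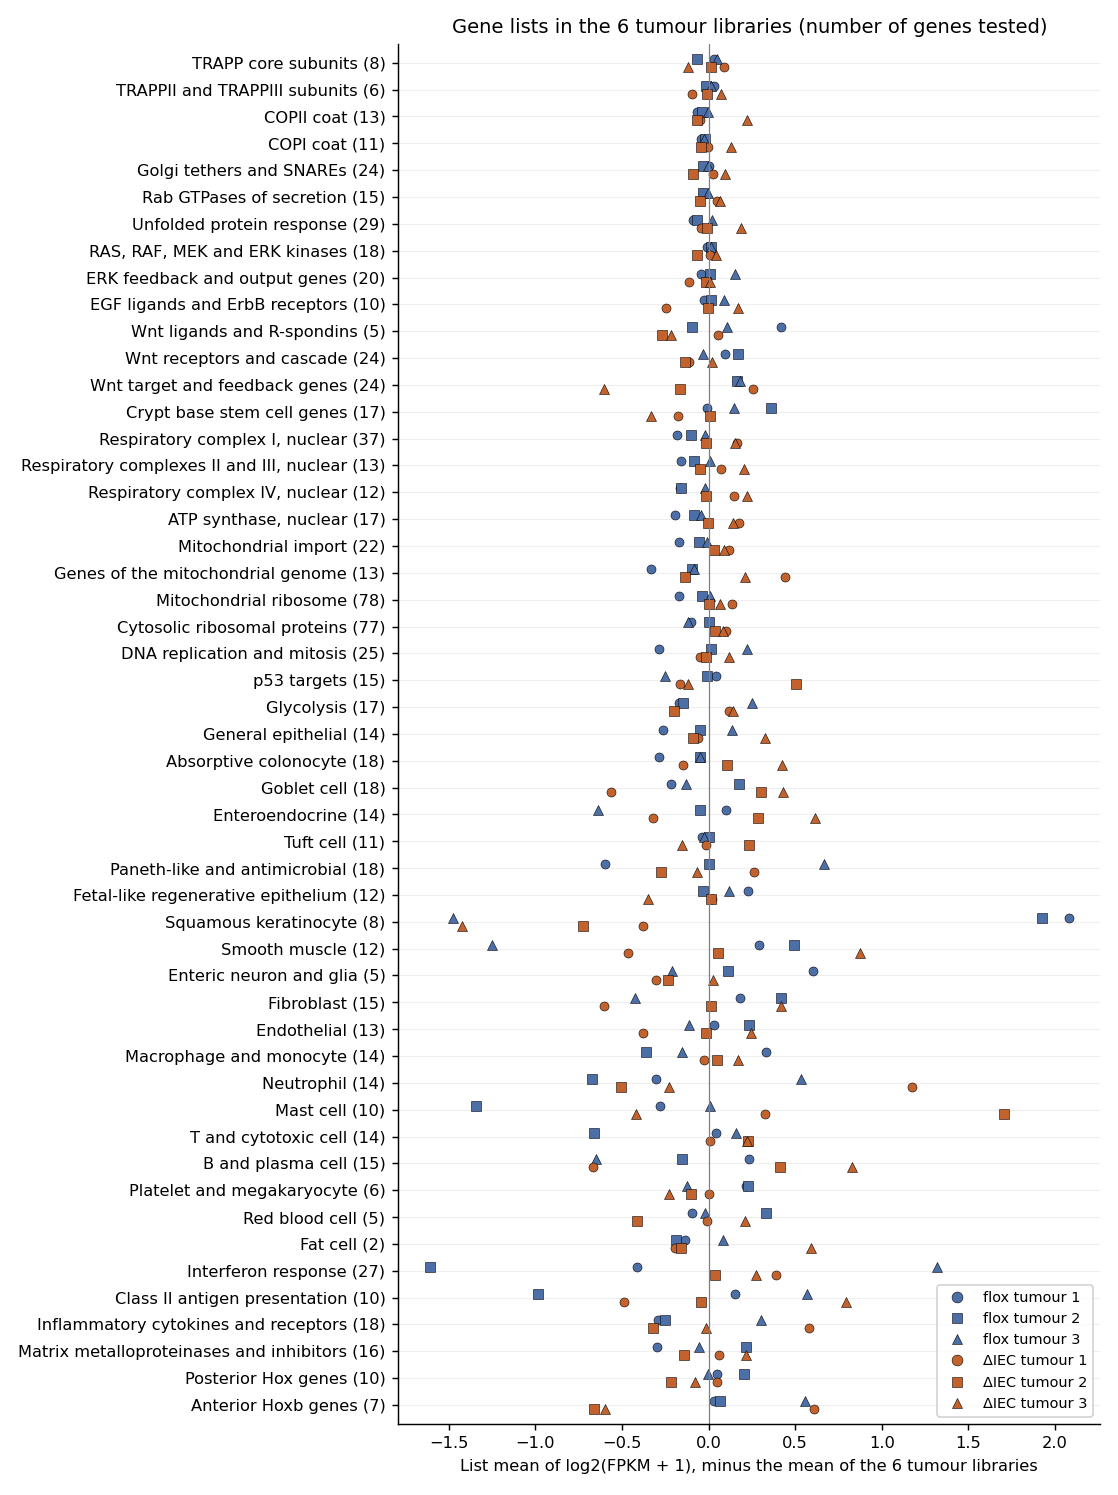
Each row is a gene list, each point its mean log2(FPKM + 1) in 1 tumour minus the mean of the 6 tumours (blue flox, orange ΔIEC; circle, square and triangle for replicates 1, 2 and 3). In the mitochondrial and ribosomal lists ΔIEC tumours 1 and 3 lie to the right of all flox tumours, and ΔIEC tumour 2 is the leftmost of its genotype. Squamous, mast cell and interferon lists spread widely within a genotype.

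Several cell type lists varied widely within a genotype. Squamous keratinocyte genes, keratins among them, belong to stratified epithelium, as found at the anal margin, and 8 of 8 tested had an estimate below 0. Their mean log2 levels were 4.96 and 4.80 in flox tumours 1 and 2, 1.40 in flox tumour 3 and 2.502, 2.16 and 1.46 in ΔIEC tumours. Krt5, the basal keratin, measured 93.8 and 89.2 FPKM in the first pair and was listed at 0 in flox tumour 3, against 3.37, 0.0154 and 0.108 FPKM in ΔIEC tumours. Without flox tumour 3, limma called 3 genes, Krt5 (-5.76), Krt6a (-3.93) and Krt14 (-3.49), with adjusted p of 0.0093, 0.0093 and 0.011. With all 6 tumours the groups overlapped for each of the 8 squamous keratinocyte genes. Krt13 of non-keratinising squamous epithelium measured 100.8, 129.5 and 17.3 FPKM in flox and 18.7, 4.78 and 11.02 FPKM in ΔIEC tumours. In the flox tumours with high keratins, the neutrophil-activating chemokine gene Ppbp was also high, at 20.7 and 39.4 FPKM against 6.74 FPKM in flox tumour 3 and 7.12, 3.51 and 1.35 FPKM in ΔIEC tumours.

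Mast cell genes had 10 of 10 estimates above 0 and a median of 1.18, carried by ΔIEC tumour 2. Mcpt1, a protease of mucosal mast cells, measured 44.2, 3.18 and 72.8 FPKM in flox and 61.4, 422.0 and 42.9 FPKM in ΔIEC tumours. Outside ΔIEC tumour 2 the values of both genotypes lay in one range, and the list's median was 0.46 without that tumour and 0.59 for the members that passed a filter at 5 FPKM. Fcer1a, the chain of the IgE receptor that binds IgE, measured 0.882, 0.310 and 0.788 against 2.59, 7.72 and 0.856 FPKM. Interferon response genes had 27 of 27 estimates above 0 and 0 without overlap, with mean log2 levels of 4.03, 2.84 and 5.77 in flox and 4.84, 4.49 and 4.72 in ΔIEC tumours. Their median of 0.50 became -0.22 without flox tumour 2, 1.21 without flox tumour 3 and 0.13 with the sex pattern as a covariate, which was added after seeing the data. Cxcl9, an interferon-induced chemokine, ran from 2.65 to 91.0 FPKM among flox tumours and from 27.0 to 99.3 FPKM among ΔIEC tumours.

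RNA levels of smooth muscle and fibroblast genes varied between tumours as well. Smooth muscle genes had mean log2 levels of 3.23, 3.43 and 1.69 in flox and 2.48, 3.00 and 3.82 in ΔIEC tumours, and fibroblast genes 4.95, 5.18 and 4.34 against 4.16, 4.78 and 5.19. Of 12 smooth muscle genes 1 was higher without overlap, Casq2, at low means of 0.695 FPKM in flox and 0.954 FPKM in ΔIEC tumours. Of 15 fibroblast genes 0 lacked overlap, beside 3.03% of all genes higher and 3.74% lower. The part of these tissues in the results above was not tested. Goblet cell and colonocyte genes gave 0 of 18 without overlap each, but Zg16, a secreted lectin of goblet cells, measured 216.9, 168.3 and 64.0 FPKM in flox and 117.8, 488.2 and 475.5 FPKM in ΔIEC tumours, with ΔIEC tumour 1 inside the flox range.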

How the data were processed

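RNA from 12 colon samples, 4 groups of 3, was sequenced, and the authors deposited 1 table of log2 values per transcript, read here as log2(FPKM + 1). Per the submitters' processing notes, FastQC, STAR 2.5 and Cuffnorm were used with GRCm38. No source used here gives read counts, depth or the annotation, so there are no counting intervals. FPKM was recovered as 2 to the value, minus 1, and added up by gene with GENCODE M21, in which 118004 of 123062 transcripts (95.9%) were found. Sequences come from GENCODE M21.

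Features at 1 FPKM in at least 3 libraries were fitted in limma 3.58.1 (R 4.3.3) on log2(FPKM + 1) with 4 group means over all 12 libraries, a mean-variance trend, robust moderation and 8 residual degrees of freedom. The fit was tested on simulated data. Groups came from titles and genotype labels. Genes were named by rule: Trappc4, the 12 smallest p in each direction among protein-coding genes without overlap, the first and the 2 smallest-p members of each list, 5 transcripts in each direction, the most variable genes and the leading interaction genes. Other named genes, such as those without overlap in a list, were chosen after their values were seen. The members and lists were chosen with earlier results of these data known. Some features that the rule for named genes selects are not reported here.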

Additional observations from a re-analysis of the deposited data

How the results depend on the processing

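Trappc4 was lower in ΔIEC tumours under every setting run, from -0.78 to -0.62 when 1 tumour was left out. Genes called went from 0 to 8 with no filter and to 1 (the small nucleolar RNA Gm22362) in a fit of the 6 tumours alone; leaving out a tumour gave 0 to 3, and the transcript fit 2. Transcripts called went from 2 to 8 with a pseudocount of 0.1, 27 with no filter, 1 with a filter at 5 FPKM, 1 with the tumours alone, and 0 with quantile normalization, with median centring and with the sex pattern as a covariate, which was added after seeing the data; leaving out a tumour gave 0 to 4. The cause of these changes was not tested. Left-out tumours took Zfp865 from -0.14 to 2.06 and Mptx1 from -0.90 to 1.85.

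The title numbers were not taken as pairs: deviations of flox and ΔIEC tumours with the same number correlated at -0.07, 0.11 and -0.13, and ΔIEC replicate 1 has different codes in its tumour and adjacent labels. With the title number as a replicate block, 0 genes and 0 transcripts were called. With the code as a random block (consensus correlation 0.0291 for genes), 0 genes and 2 transcripts were called. Without deposited depth, low FPKM values have no counting error attached.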

Other observations

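Some wide spreads within a genotype came from a single tumour. Zfp865, a zinc finger gene, measured 311.0 FPKM in ΔIEC tumour 1 and 13.8 to 17.9 FPKM in the other 5 tumours. Mptx1, a pentraxin of the intestinal mucosa, measured 280.0 FPKM in ΔIEC tumour 2 and 5.22 to 56.5 FPKM elsewhere. Ltf, the iron-binding protein lactoferrin, measured 233.3 FPKM in flox tumour 2 and 2.41 to 19.5 FPKM elsewhere. In ΔIEC tumour 2 the p53 target genes were also highest: the cell cycle inhibitor Cdkn1a measured 72.8 FPKM there and 37.2 to 51.8 FPKM in the other tumours, and the death promoter Bax 51.2 FPKM beside 32.6 to 34.6 FPKM. None of the 15 p53 targets lacked overlap between the genotypes.

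Hox genes record position along the gut. The anterior genes Hoxb5 and Hoxb6 divided the ΔIEC tumours: Hoxb6 measured 5.51 FPKM in ΔIEC tumour 1, 0.260 FPKM in ΔIEC tumour 2 and 0.803 FPKM in ΔIEC tumour 3, against 2.52, 3.54 and 6.78 FPKM in flox tumours. Hoxb5 measured 3.59, 0.279 and 0.374 FPKM in ΔIEC tumours and 1.72, 2.48 and 4.07 FPKM in flox tumours. The posterior gene Hoxd13, a marker of the distal gut, measured 63.7, 69.6 and 55.6 FPKM in flox tumours and 42.5, 52.9 and 52.3 FPKM in ΔIEC tumours. No test here assigns a tumour to a stretch of colon.

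Of 120 small nucleolar RNA genes, 3 were higher and 4 lower (3.33%) without overlap, beside 3.03% and 3.74% of all genes. Of 84 genes of the class misc_RNA, 4 were higher and 8 lower (9.52%). Single small RNAs had wide gaps. Gm22362 was listed at 0 in all flox tumours and measured 11.2, 13.2 and 11.3 FPKM in ΔIEC tumours, while in adjacent tissue it was listed at 0 in all ΔIEC libraries and reached 8.65 and 27.1 FPKM in flox libraries 1 and 2. Gm24616 measured 55.9, 61.3 and 46.3 FPKM in flox tumours and 34.6, 25.6 and 17.3 FPKM in ΔIEC tumours, a log2 difference of -1.09 (limma adjusted p = 1).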
